A study of Rattus norvegicus with 68 samples.

Results

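The epithelial antimicrobial defence genes examined here are 8 genes of secreted proteins that act against microbes or limit the damage of killing them: Defb4, Defb1, Camp, Lcn2, Ltf, Slpi, Wfdc2 and Lyz2. The list was selected on earlier results of these arrays, in particular the late signal of Defb4. Matched by symbol to the array's annotation, 7 of the 8 had a probe set among the 14217 genes measured. No probe set is named for Ltf (lactoferrin), which is not analysed here. Each of the other members had 1 named probe set. Defb4 was singled out because its signal was already known to be higher late at 15 ppm, so its values are described and carry no test.

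RNA came from nasal epithelial cells of male F344/CrlBR rats, 8 weeks old at the start, that breathed formaldehyde in whole-body chambers at 0, 0.7, 2, 6, 10 or 15 ppm for 6 h per day on 5 d per week. The animals were killed after 5 d (1 week in the series text), 4 w or 13 w, and 68 arrays of 1 animal each formed 17 groups of 4. For 19 of the 20 arrays of 4 w the treatment field gives 5 d, while the title and the time field give 4 w, which was followed, so all 4 w values rest on those labels. No 0 ppm array of 4 w was analysed here, so the 0.7 ppm group, itself exposed, was the reference at 4 w. The titles of the 0 ppm arrays carry codes beginning with ACO whose meaning is not given and which cannot be told apart from dose, or at 0 ppm from time. Signals are log2 values, so a difference of 1 is a doubling. Array medians ran from 6.82 to 6.96, arrays of a group correlated at 0.977 to 0.996 across probe sets, and a mean signal under 6 is called low. Means carry ± SD (n = 4 animals) and changes ± SE. A change was called at an adjusted p under 0.05, from limma with Benjamini-Hochberg adjustment over all 14217 genes of a comparison.

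The cells were released by proteases from level II of the nose, which the labels describe as mostly transitional with some respiratory epithelium. All 10 measured epithelial markers lay over 6 in the 0 and 15 ppm groups, with group means of 11.90 to 11.95 at 5 d and 11.91 to 12.06 at 13 w. Markers of other tissue were present too, although the labels say that the olfactory lining had been discarded. The 4 olfactory markers averaged 11.54 ± 0.52 at 0 ppm and 5 d and 10.07 ± 1.56 at 15 ppm and 13 w. These groups differ in both dose and time. Omp, 1 of the 4, measured 12.78 ± 0.51 at 0 ppm and 12.35 ± 0.95 at 15 ppm after 5 d. After 13 w it measured 11.69 ± 1.33 and 11.17 ± 1.60. None of the 4 was called at 15 ppm after 13 w (limma adjusted p from 0.506 to 0.816). The 12 fibroblast, cartilage and bone markers averaged 11.07 ± 0.31 at 0 ppm and 9.85 ± 0.49 at 15 ppm after 13 w. There 6 of the 12 fell, where 44.2% of all genes were called in either direction. The part of these other-tissue markers in the results was not tested.

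Airway and oral epithelia guard their surface with small secreted proteins. Beta-defensins (Defb4 and Defb1) are cationic peptides that disrupt microbial membranes, and the cathelicidin precursor encoded by Camp is cut to release a peptide of like action. Lysozyme (Lyz2) cleaves bacterial cell walls, and lipocalin 2 (Lcn2) withholds iron by binding bacterial siderophores. Slpi inhibits neutrophil elastase and is itself antimicrobial, and Wfdc2 is a related secreted protein with whey acidic protein domains. Some of these genes are transcribed by leukocytes as well as by epithelium: lysozyme by macrophages and neutrophils, the cathelicidin and lipocalin 2 by developing neutrophils.

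Lcn2, Lyz2, Slpi and Camp were called higher at 15 ppm after 5 d, Camp only at the threshold. Slpi, Defb4 and Defb1 have no entry in RefSeq's promoter table (build GRCr8). That table holds upstream sequence of Lcn2, Lyz2 and Camp. These sequences are shown so that the motif matches can be seen in place. Each is the strand that reads towards the gene, up to 250 bases before the start in the table and without bases inside the annotated gene (71 for Lcn2, 49 for Lyz2). Lower case is unmatched sequence, and capitals mark the letters of a searched motif. The Lcn2 stretch is chr3:36081852-36082030, the Lyz2 stretch chr7:54798061-54798261 and the Camp stretch chr8:118721999-118722248, all on the minus strand.
Lcn2: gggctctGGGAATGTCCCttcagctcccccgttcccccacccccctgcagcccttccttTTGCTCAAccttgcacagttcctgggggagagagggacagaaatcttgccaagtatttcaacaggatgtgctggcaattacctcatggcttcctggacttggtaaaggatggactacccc
Lyz2: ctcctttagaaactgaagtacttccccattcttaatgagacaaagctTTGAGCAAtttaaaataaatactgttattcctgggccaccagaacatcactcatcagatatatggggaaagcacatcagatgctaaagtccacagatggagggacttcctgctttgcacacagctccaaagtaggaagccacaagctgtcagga
Camp: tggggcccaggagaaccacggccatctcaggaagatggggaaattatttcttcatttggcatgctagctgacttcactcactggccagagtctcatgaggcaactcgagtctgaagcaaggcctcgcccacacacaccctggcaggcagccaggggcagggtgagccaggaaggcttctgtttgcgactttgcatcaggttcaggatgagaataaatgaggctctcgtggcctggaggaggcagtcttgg

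The motifs searched, on both strands and over the whole 250 bases, were the NF-kB kind (GGGA, 4 bases of any kind, then CC), TTGCNNAA (C/EBP kind), TGANTCA (AP-1 kind) and TTCNNNGAA (STAT kind). Of 33469 windows of that length in the table, 16.4% held the NF-kB kind, 9.2% TTGCNNAA, 6.3% TGANTCA and 7.7% TTCNNNGAA. The Lcn2 window held the NF-kB kind on both strands in overlapping matches that began 243 and 242 bases before the start, and TTGCNNAA at 191 bases. The Lyz2 window held TTGCNNAA on the opposite strand at 203 bases. None of the motifs matched in the windows of Camp, Ltf and Wfdc2. All 250 bases of the Wfdc2 window lay inside the annotated gene, so that window held no sequence before it. A match describes these letters and is not evidence of binding.

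Defb4 (probe set 1387960_at, chr16:77352911-77356104 in GRCr8), an inducible beta-defensin, had its highest signal at 15 ppm after 13 w. The 4 animals of that group measured 10.39, 11.31, 11.62 and 11.14 (mean 11.11 ± 0.53). The 4 animals at 0 ppm measured 9.30, 7.04, 6.42 and 7.17 (mean 7.48 ± 1.26), so the groups did not overlap and differed by 3.63 ± 0.79 on the log2 scale, or 12.4-fold. Only 3 of the other 64 arrays exceeded the lowest animal of the 15 ppm group, the highest of them a 0 ppm animal of 5 d at 10.64. In a tissue sample, more cells of a type and more RNA per cell cannot be told apart.

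At 5 d the gene was not higher at 15 ppm, with animals at 8.03, 6.88, 9.52 and 8.08 against 8.53, 9.09, 10.64 and 6.44 at 0 ppm. The ranges overlapped, and the change was -0.55 ± 0.79. At 4 w the 15 ppm animals measured 8.75, 8.99, 10.16 and 9.72, and those at 0.7 ppm 5.91, 6.57, 9.45 and 8.89, a change of 1.70 ± 0.79 with overlapping ranges. Between 5 d and 13 w the response to 15 ppm grew by 4.18 ± 1.12 on the log2 scale with 0 ppm as reference. With 0.7 ppm as reference it differed by 1.96 ± 1.12 for 4 w minus 5 d and by 0.32 ± 1.12 for 13 w minus 4 w. The gene was picked for its late rise, so these values are given as a description.

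The 0 ppm group of 13 w had the lowest Defb4 mean of all 17 groups. At that time the means were 9.10 ± 0.56 at 0.7 ppm, 8.27 ± 1.54 at 2 ppm, 8.78 to 9.21 in single animals at 6 ppm and 9.09 ± 0.93 at 10 ppm, so the signal did not follow dose below 15 ppm. With 0.7 ppm as the reference the change at 15 ppm was 2.01, and those at 2, 6 and 10 ppm were -0.83, -0.10 and -0.01. The 0 ppm change from 5 d to 13 w was -1.20 ± 0.79 (95% interval -2.79 to 0.40), with animals at 6.42 to 9.30 against 6.44 to 10.64, which overlapped. Leaving out each animal in turn gave -1.94 (without the 5 d animal at 6.44) to -0.54 (without the 5 d animal at 10.64).

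Defb4 varied more between animals of a group than nearly any other gene. Its pooled SD within groups was 1.15, at percentile 99.9 of all genes, whose median SD was 0.15. The 4 w animals at 2 ppm ran from 5.85 to 10.46. In the order of the 17 group means each of the 16 neighbouring pairs had overlapping ranges, including 15 ppm at 13 w and the group next to it.

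Defb1 (1369660_at, chr16:77001326-77016068), a beta-defensin usually described as constitutive, also had its highest signal at 15 ppm after 13 w. The 4 animals measured 10.96, 11.15, 11.56 and 11.27 against 9.48, 9.59, 10.62 and 9.84 at 0 ppm. All 4 lay above each of the other 64 arrays, the highest of which was a 10 ppm animal of 13 w at 10.94. The change was 1.35 ± 0.31 (2.56-fold; limma adjusted p = 2.8e-04). Of the 6 members tested, Defb1 was the 1 called at 15 ppm after 13 w, where 23.5% of all genes were called higher and 44.2% in either direction.

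At 5 d the Defb1 means were 9.31 ± 0.65 at 15 ppm and 9.58 ± 0.55 at 0 ppm, a change of -0.27 ± 0.31 (limma adjusted p = 0.549). At 4 w the gene was higher at 15 ppm than at 0.7 ppm by 0.81 ± 0.31 (limma adjusted p = 0.0359), with animals from 10.16 to 10.75 against 8.80 to 10.50, which overlapped. That call was lost without any 1 of 5 of the 8 animals, with a highest adjusted p of 0.243. Defb1 responded to 15 ppm more at 13 w than at 5 d, by 1.63 ± 0.44 (limma adjusted p = 0.00696). With 0.7 ppm as reference the response differed by 0.98 ± 0.44 for 4 w minus 5 d (limma adjusted p = 0.242). For 13 w minus 4 w it differed by 0.54 ± 0.44 (limma adjusted p = 0.708).

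**Figure D1:**
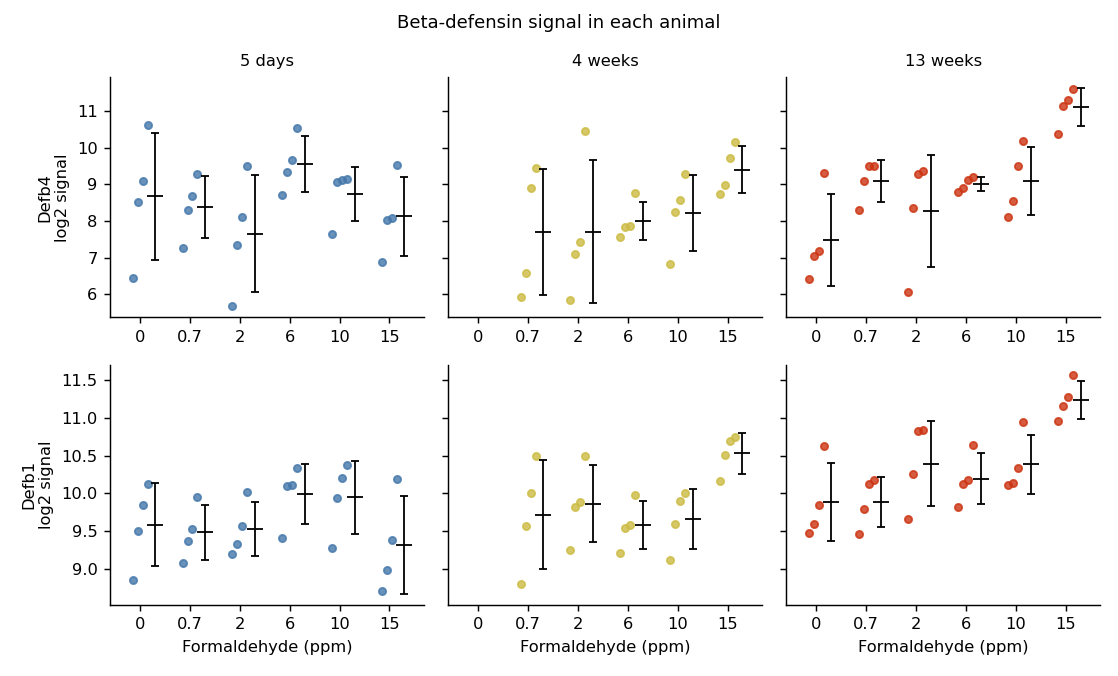
Log2 signal of Defb4 and Defb1 (y axes) against formaldehyde in ppm (x axes) at 5 days, 4 weeks and 13 weeks. Coloured points are single animals in order of value, and black bars are the mean ± SD of 4 animals; no 0 ppm animals are shown at 4 weeks. The 15 ppm animals of 13 weeks sit at 10.39 to 11.62 for Defb4 and 10.96 to 11.56 for Defb1.

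RNA integrity and cornification markers differed in the same direction between those groups. The RNA integrity number was 8.90 ± 0.36 (SD, n = 3 animals with a number) at 15 ppm and 7.57 ± 0.23 (n = 3) at 0 ppm after 13 w. With that number as a covariate the 13 w change was 3.01 for Defb4 and 1.27 for Defb1 (limma adjusted p = 0.0135). That fit leaves out the arrays without a number. At 15 ppm after 13 w 44.2% of all genes were called in either direction. Of 24 measured squamous and cornified epithelium markers, 23 rose and 0 fell there (median change 2.40 against -0.02 for all genes). Their summed level, as a mean over the list, ran from 11.41 to 11.95 in the 15 ppm animals and from 8.86 to 9.75 at 0 ppm. At 5 d 7 of the 24 rose and 1 fell (median 0.50), where 18.3% of all genes were called higher and 37.7% in either direction. Some changed strongly by then, such as Sprr1b (5.50 ± 0.40; limma adjusted p = 1.3e-16) and Tgm1 (2.40 ± 0.35; adjusted p = 1.2e-07). Others did not, such as Krt13 (-0.08 ± 0.43; adjusted p = 0.908) and Scel (-0.28 ± 0.22; adjusted p = 0.344). At 4 w 20 of the 24 markers rose and 0 fell (median 1.58), where 21.3% of all genes were called higher and 37.4% in either direction. The response of these markers to 15 ppm was greater at 13 w than at 5 d for 17 of 24, against 15.3% of all genes called. Their part in the defensin values was not tested.

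Among genes whose group means ranged over at least 1, the 5 most like Defb4 across the 17 group means were Krt10 (Pearson r = 0.963), Foxe1 (0.917), Gjb2 (0.915), C20h6orf15 (0.915) and Klk10 (0.912). Krt10 is the keratin of suprabasal cells in cornifying epithelium. Its likeness to Defb4 also held between animals of the same group: the deviations from the group means correlated at r = 0.93 over 68 animals (Spearman 0.87; r = 0.92 without the 2 animals farthest out on Defb4). The 4 animals at 0 ppm and 13 w measured 11.60, 9.80, 9.37 and 9.90 for Krt10, in the order in which Defb4 is given above, and the 0 ppm animal of 5 d with Defb4 at 10.64 had Krt10 at 12.46. Krt10 itself changed by 3.15 ± 0.64 at 15 ppm after 13 w and by 0.03 ± 0.64 after 5 d, given as a description because the gene was picked for its likeness to Defb4. The genes most like Defb1 were Scel (0.969), Ablim1 (0.957) and Krt13 (0.941). Scel encodes sciellin of the cornified envelope, and Krt13 a keratin of stratified mucosa. With the squamous and cornified markers as a list, Defb1 correlated at 0.63 over the group means and 0.53 within groups. With the fibroblast, cartilage and bone markers it correlated at -0.76 and -0.21, and with 7 endothelial and blood markers at -0.70 and -0.35. Defb4 and Defb1 correlated with each other at 0.77 over the group means and 0.47 within groups. These correlations are descriptions over arrays that share processing, and each list of likest genes is the top of 2429 genes compared.

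**Figure D2:**
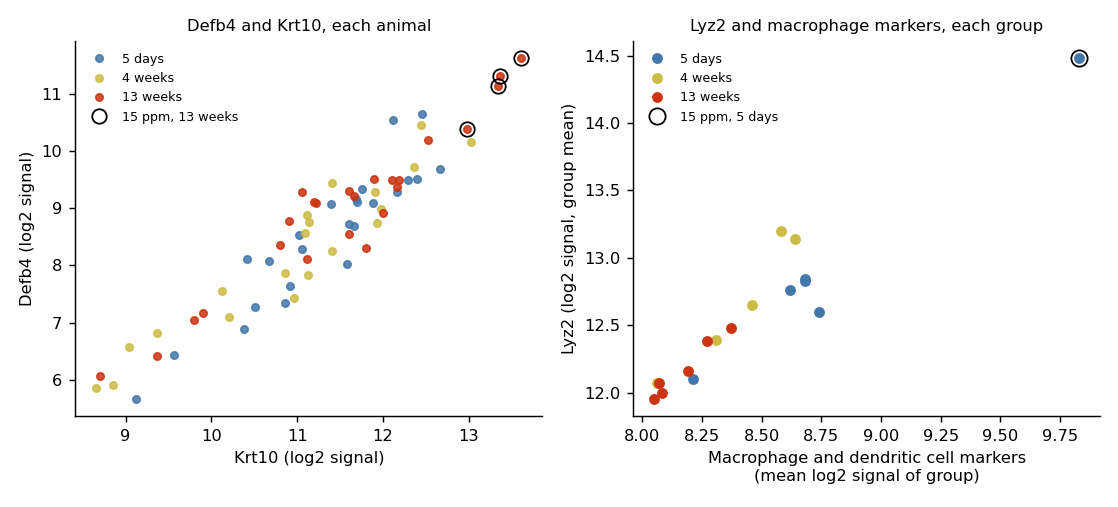
Left, Defb4 against Krt10 (log2 signals) for each of 68 animals, coloured by time, with the 15 ppm animals of 13 weeks circled. Right, group means of Lyz2 against the mean log2 signal of 16 macrophage and dendritic cell markers for 17 groups, with 15 ppm at 5 days circled. Animals high for Krt10 are high for Defb4 at every time, and the circled group on the right stands alone at 9.83 and 14.48.

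Slpi (1367998_at, chr3:173501573-173503822), the secretory leukocyte protease inhibitor, showed the largest early change of the tested members. After 5 d at 15 ppm the animals measured 12.63, 12.72, 12.17 and 12.67, and at 0 ppm 9.96, 9.90, 9.95 and 10.02. The groups lay far apart, with a change of 2.59 ± 0.55 (6.01-fold; limma adjusted p = 1.2e-04). At 10 ppm and 5 d the change was 0.45 ± 0.55 (limma adjusted p = 0.687), and 1 animal at 11.29 stood above the others at 10.01 to 10.20. At 4 w the 15 ppm animals measured 11.41, 11.10, 11.54 and 10.92 against 9.97, 8.93, 9.72 and 9.17 at 0.7 ppm, without overlap (change 1.80 ± 0.55; limma adjusted p = 0.00716). At 10 ppm and 4 w they ran from 10.18 to 10.92, all above the 0.7 ppm animals, with a change of 1.04 ± 0.55 (limma adjusted p = 0.216).

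At 13 w Slpi no longer separated the doses. The 15 ppm animals measured 10.41, 10.78, 10.39 and 10.99, and those at 0 ppm 12.45, 10.48, 9.54 and 9.69 (change 0.10 ± 0.55, with an upper 95% bound of 1.20; limma adjusted p = 0.901). Single animals stood high in 4 of the 6 groups at that time: 12.45 at 0 ppm, 11.96 at 0.7 ppm, 12.77 at 2 ppm and 12.78 at 10 ppm. Each was 1.96 to 2.63 above the next animal of its group, and 3 of these 4 reached the range of the 15 ppm group of 5 d. The response to 15 ppm was smaller at 13 w than at 5 d by 2.49 ± 0.78 (change -2.49; limma adjusted p = 0.0209). Without the 0 ppm animal at 12.45 the difference was -1.85 (limma adjusted p = 0.094), and with 0.7 ppm as reference at both times -1.84 (limma adjusted p = 0.102). The rises at 5 d and 4 w stayed called whichever animal was left out.

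Wfdc2 (1390765_at, chr3:173706091-173735055) had a signal higher than 99.8% of genes and hardly moved. Its 17 group means ran from 14.04 ± 0.19 at 15 ppm and 13 w to 14.42 ± 0.10 at 6 ppm and 5 d, a range of 0.38. The pooled SD within groups was 0.12. None of the 24 comparisons called it, but at 15 ppm and 13 w it joined Defb1 as a called gene, for a count of 2, with array weights, with 0.7 ppm as reference or without the 15 ppm animal numbered 375. At 15 ppm the changes were -0.12 ± 0.09 at 5 d (95% interval -0.29 to 0.06; limma adjusted p = 0.31), -0.18 ± 0.09 at 4 w (adjusted p = 0.108) and -0.16 ± 0.09 at 13 w (interval -0.33 to 0.01; adjusted p = 0.134). A signal so near the top of the array's range, which ended at 15.37, can understate differences. Ciliated cell markers correlated with Wfdc2 at 0.80 over the group means and 0.68 within groups. At 15 ppm after 13 w 0 of the 7 measured rose and 7 fell (median change -0.77), where 44.2% of all genes were called in either direction. The levels of these markers were 8.79 to 9.37 against 9.55 to 10.10 at 0 ppm. Their part in the Wfdc2 values was not tested.

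Lyz2 (1370154_at, chr7:54792715-54798060), lysozyme, was the member with the clearest rise at 5 d. The 15 ppm animals measured 14.51, 14.41, 14.40 and 14.59, above all 64 other arrays, whose highest value was 13.66. At 0 ppm the animals measured 12.69, 12.75, 12.81 and 13.08, a change of 1.65 ± 0.23 (3.14-fold; limma adjusted p = 4.3e-08). A near-identical lysozyme gene lies beside it in the rat genome, so the signal may come from both.

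The change of Lyz2 was 0.74 at 4 w, and at 13 w the 15 ppm animals were no higher than the 0 ppm animals. At 4 w the animals measured 13.66, 12.96, 12.97 and 12.95 at 15 ppm and 12.49, 12.44, 12.55 and 12.08 at 0.7 ppm (change 0.74 ± 0.23; limma adjusted p = 0.00762). At 10 ppm and 4 w the change was 0.81 ± 0.23 (limma adjusted p = 0.0101), the 1 call among the 6 tested members there against 9.03% of all genes called higher and 14.8% in either direction. Each of these 4 w calls was lost without 1 animal, the 15 ppm one without the animal at 13.66 (adjusted p = 0.0602) and the 10 ppm one without the animal at 13.63 (adjusted p = 0.063). At 13 w the 15 ppm animals measured 11.98, 12.58, 11.40 and 12.34, below or within the 0 ppm range of 12.00 to 12.67 (change -0.40 ± 0.23; limma adjusted p = 0.157). Compared with 5 d, the 13 w response to 15 ppm was smaller by 2.05 ± 0.32 (change -2.05; limma adjusted p = 4.2e-06).

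At 6 ppm and 5 d Lyz2 moved the other way, with animals at 11.99, 12.47, 12.09 and 11.87, all below the 0 ppm animals. The change was -0.73 ± 0.23 (limma adjusted p = 0.036), again the 1 call among the 6 tested members, where 5.30% of genes were called lower and 8.83% in either direction. The call was lost without any 1 of 7 of the 8 animals (highest adjusted p = 0.131). The beta-actin difference between 3' and 5' control probe sets, a sign of RNA quality, was 2.61 ± 0.17 at 6 ppm and 1.71 ± 0.20 at 0 ppm, and with it as a covariate the change was -0.37 (limma adjusted p = 0.483). The RNA integrity number was 8.47 ± 0.21 (n = 3) at 6 ppm and 7.68 ± 0.29 (n = 4) at 0 ppm. The 2 measures therefore ranked the RNA quality of these groups differently. Macrophage and dendritic cell markers averaged 8.21 ± 0.16 at 6 ppm and 8.68 ± 0.20 at 0 ppm. The part of the macrophage markers in this value was not tested.

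Lcn2 (1387011_at, chr3:36078432-36081851), lipocalin 2, had a low signal in all groups but 15 ppm at 5 d. Those 4 animals measured 5.85, 7.07, 6.03 and 5.74, above the 0 ppm animals at 5.06, 5.28, 5.01 and 5.13. The change was 1.06 ± 0.22 (limma adjusted p = 1.3e-04), and 0.76 without the animal at 7.07. At 4 w the change at 15 ppm was 0.47 ± 0.22 (limma adjusted p = 0.101) and at 13 w -0.27 ± 0.22 (adjusted p = 0.365). The response at 13 w was smaller than at 5 d by 1.32 ± 0.32 (change -1.32; limma adjusted p = 0.00214). With signals this near the floor of the array, the size of a fold is uncertain.

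Camp (1393603_at, chr8:118720184-118721998), the cathelicidin, was also low, with 5 of 17 group means at 6 or more. All 5 were groups of 5 d. At 15 ppm and 5 d the animals measured 6.34, 7.73, 7.49 and 6.68 against 6.76, 5.66, 5.65 and 6.76 at 0 ppm, which overlapped. The change was 0.86 ± 0.35 (limma adjusted p = 0.0489). This call lay at the threshold: it was lost in 9 of the 11 other settings tried, and without any 1 of 4 of the 8 animals. The highest Camp value of all arrays was 8.79 in a 2 ppm animal of 5 d. The response to 15 ppm at 13 w minus 5 d was -1.03 ± 0.50 (limma adjusted p = 0.167).

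**Figure D3:**
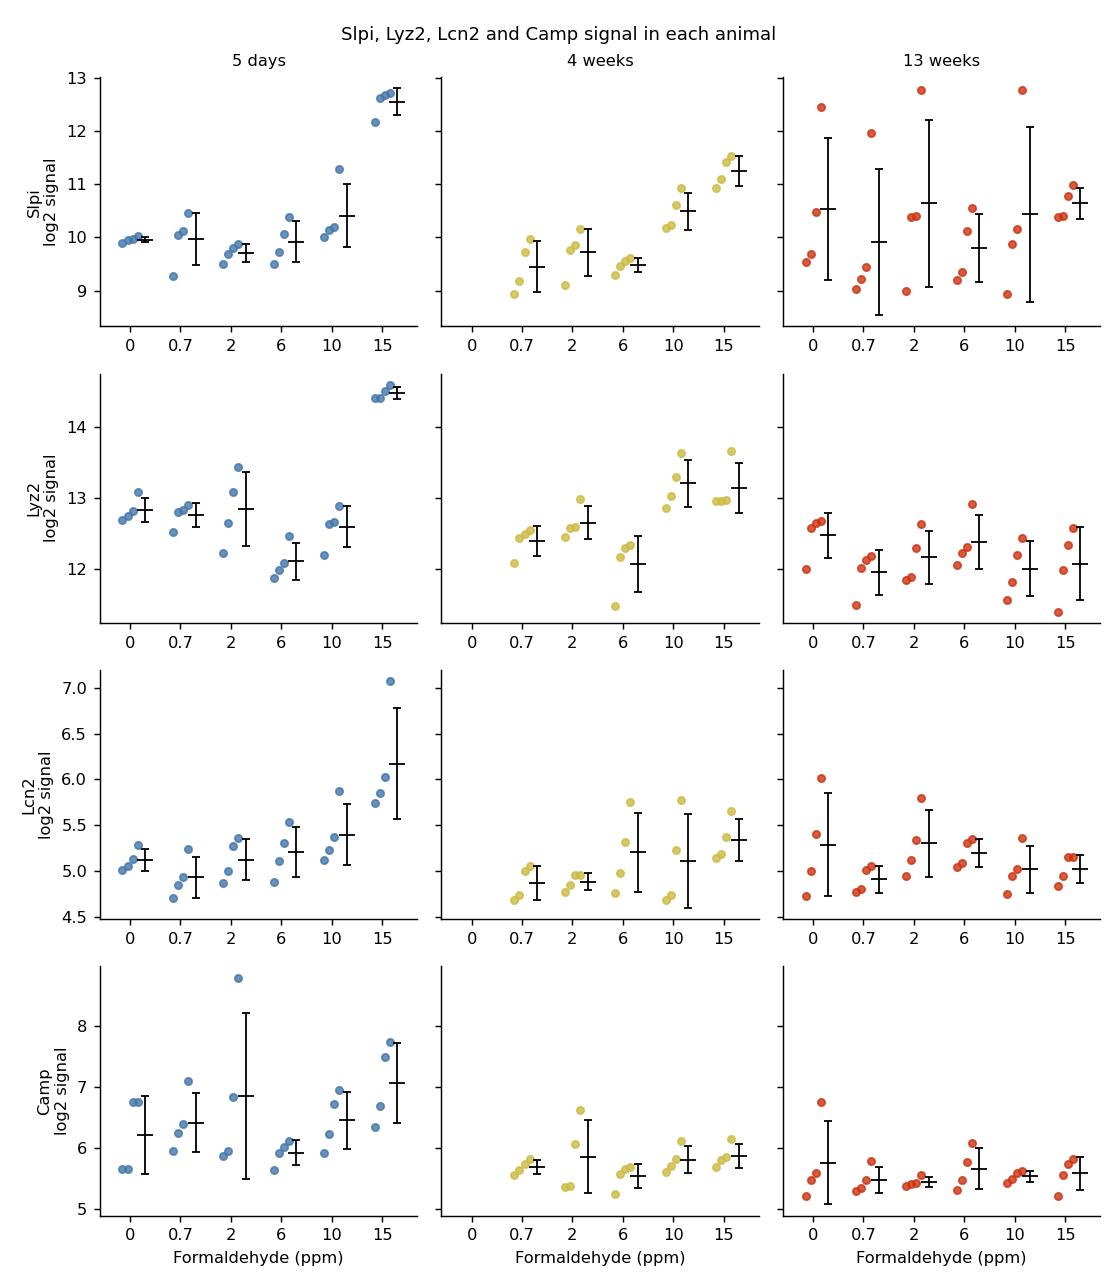
Log2 signal of Slpi, Lyz2, Lcn2 and Camp (y axes) against formaldehyde in ppm (x axes) at 5 days, 4 weeks and 13 weeks. Coloured points are single animals in order of value, and black bars are the mean ± SD of 4 animals; no 0 ppm animals are shown at 4 weeks. At 5 days the 15 ppm animals stand above the others for Slpi and Lyz2, and at 13 weeks single Slpi animals reach 11.96 to 12.78 in 4 groups.

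Over the 6 tested members, 4 rose and 0 fell at 15 ppm after 5 d (Slpi, Lyz2, Lcn2 and Camp), where 18.3% of all genes were called higher and 37.7% in either direction. At 4 w 3 rose and 0 fell (Slpi, Lyz2 and Defb1) against 21.3% of genes called higher and 37.4% in either direction. The response to 15 ppm differed between 13 w and 5 d for 4 of the 6, where 15.3% of genes were called in either direction: it was larger at 13 w for Defb1 and smaller for Lyz2, Slpi and Lcn2. No tested member was called by limma at 0.7, 2 or 10 ppm after 5 d (0%, 0.0281% and 15.5% of genes called) or at 0.7, 2, 6 or 10 ppm after 13 w (0%, 0.00703%, 12.2% and 26.4%). The same held at 2 and 6 ppm after 4 w (0.0211% and 3.28%). Among those, Lyz2 had an unadjusted p under 0.05 at 0.7 and 10 ppm after 13 w, and Wfdc2 at 2 ppm after 4 w. Limma also called 0 of 6, with 0 at an unadjusted p under 0.05, between 0 ppm at 13 w and 5 d (2.24% of genes called) and for the response to 6 or 10 ppm between those times (0% and 0.00703%). The responses at 4 w minus 5 d and 13 w minus 4 w, with 0.7 ppm as reference, called 0 of 6 at 6, 10 and 15 ppm. At 6 ppm 0% of genes were called in both, and at 10 ppm 0.0211% and 0.0141%, and 1 member had an unadjusted p under 0.05 in each of these 4. At 15 ppm the count at an unadjusted p under 0.05 was 3 for 4 w minus 5 d (Defb1, Lcn2 and Lyz2) and 0 for 13 w minus 4 w, where 3.45% and 0.0633% of genes were called. Comparisons at 1 time share their reference animals.

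**Figure D4:**
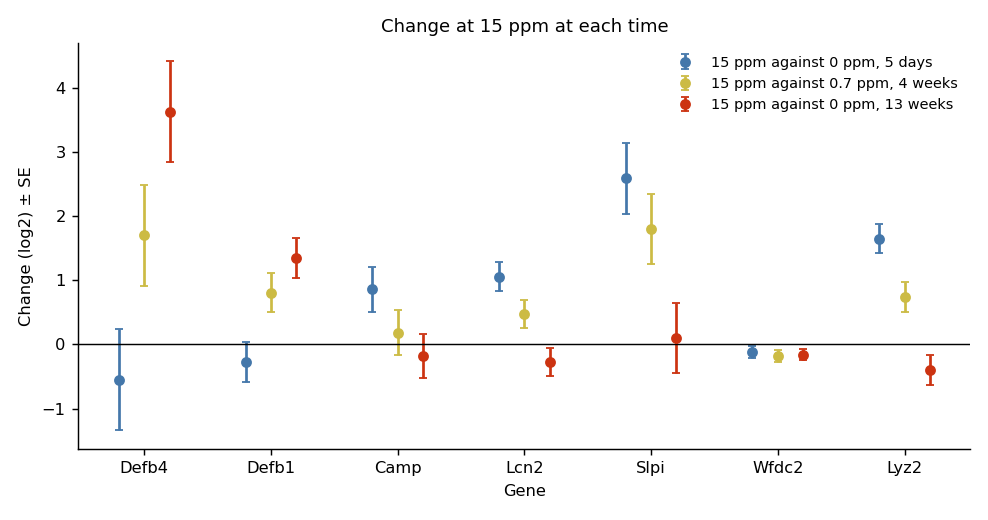
Change in log2 signal at 15 ppm for the 7 measured genes (x axis) at each time; points are the limma estimates and bars ± SE, with 0 ppm as reference at 5 days and 13 weeks and 0.7 ppm at 4 weeks. Defb4 and Defb1 run upward from 5 days to 13 weeks (-0.55 to 3.63 and -0.27 to 1.35), and Slpi, Lyz2, Lcn2 and Camp downward. The 4 week points have another reference, so steps to and from them mix references.

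Leukocyte markers moved with the early genes. Of all genes, 37.7% were called in either direction at 15 ppm after 5 d, 37.4% after 4 w and 44.2% after 13 w. For the 15 ppm response at 13 w minus 5 d the share was 15.3%. At 15 ppm after 5 d 11 of 14 measured neutrophil markers rose and 0 fell (median change 1.37, against -0.01 for all genes), and their mean level ran from 8.20 to 8.51 in the 15 ppm animals against 6.15 to 7.14 at 0 ppm. Csf3r, the receptor of granulocyte colony-stimulating factor, rose by 3.76 ± 0.33 (limma adjusted p = 8.1e-14), and Il1r2, the decoy receptor of interleukin-1, by 3.92 ± 0.37 (adjusted p = 7.2e-13). Cxcr1, Mmp8 and Ncf1 were under 6 in every group. At 4 w 7 of the 14 rose (median 0.48) and at 13 w 2 (median 0.09), with 0 lower at both times. The neutrophil response to 15 ppm was smaller at 13 w than at 5 d for 10 of 14. Of 16 macrophage and dendritic cell markers, 9 rose and 0 fell at 5 d (median 0.60), with levels of 9.40 to 10.16 against 8.51 to 8.93. At 13 w 1 rose and 7 fell (median -0.38, against -0.02 for all genes). There 23.5% of all genes were called higher and 44.2% in either direction. Cd163 was under 6 everywhere. Aif1, a macrophage marker, rose by 1.86 ± 0.23 at 5 d (limma adjusted p = 2.4e-09). Of 11 lymphocyte markers 6 rose and 0 fell at 5 d (median 0.54), with levels of 6.55 to 7.77 against 5.91 to 6.27. At 13 w 0 rose and 5 fell (median -0.43), against the same shares of all genes. Prf1, the perforin of cytotoxic lymphocytes, rose by 2.22 ± 0.26 at 5 d (limma adjusted p = 6.8e-10), and Cd4, Cd79b and Ms4a1 were under 6 in every group. The beta-actin difference was 2.47 ± 0.08 at 15 ppm and 1.71 ± 0.20 at 0 ppm after 5 d, and with it as a covariate the Slpi change was 2.41 and the Lyz2 change 1.95. The RNA integrity number was 8.32 ± 0.33 at 15 ppm and 7.68 ± 0.29 at 0 ppm after 5 d (n = 4 each). The part of the leukocyte markers in these values was not tested.

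Across the 17 group means Lyz2 was most like Aif1 (r = 0.971), Itgb2 (0.966) and Lrg1 (0.960), and the neutrophil and macrophage lists correlated with it at 0.94 and 0.96. The 15 ppm group of 5 d stood well above the next group mean for Lyz2 (14.48 against 13.20), Slpi (12.54 against 11.24) and Lcn2 (6.17 against 5.40). Correlations over group means without that group were not computed. Within groups the same lists correlated with Lyz2 at 0.70 and 0.74 over 68 animals. Camp was most like the neutrophil defensin genes RatNP-3b (0.963), Defa5 (0.960) and Np4 (0.954), of which the latter pair are in the neutrophil list. These defensin genes were not called at 15 ppm after 5 d (limma adjusted p = 0.454, 0.434 and 0.507). Over the group means Camp correlated at 0.86 with the macrophage list, 0.84 with 7 endothelial and blood markers and 0.75 with the neutrophil list. Within groups the order differed, at 0.27, 0.17 and 0.61. Slpi was most like the neutrophil chemokine gene Cxcl3 (0.943), Ly6c (0.937) and Slc16a3 (0.929), and Lcn2 most like Ly6c (0.923), Sts (0.903) and Mnda (0.900). The neutrophil list correlated with Slpi at 0.83 over group means and 0.31 within groups, and with Lcn2 at 0.80 and 0.04. For the lymphocyte list these values were 0.78 and 0.40 with Slpi, and 0.84 and 0.41 with Lcn2. Lcn2 and Slpi correlated at 0.82 over group means and 0.01 within groups. Defb4 gave -0.03 with the neutrophil list and 0.83 with the squamous list over group means, and 0.84 with the latter within groups.

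Other epithelial defence genes were called about as often as all genes. Of 28 measured, 6 rose and 3 fell at 15 ppm after 5 d (32.1% called, against 37.7% of all genes), and 3 rose and 9 fell after 13 w (42.9% against 44.2%; median change -0.25). At 13 w Pigr, which carries IgA across the epithelium, fell by 1.55 (change -1.55 ± 0.21; limma adjusted p = 1.2e-08). The mucosal chemokine gene Ccl28 changed by -1.11 ± 0.20 (adjusted p = 8.1e-06), the lung collectin gene Sftpd by -0.96 ± 0.14 (adjusted p = 9.7e-08) and complement C3 by -0.80 ± 0.17 (adjusted p = 1.1e-04). Duoxa1, the maturation factor of the hydrogen peroxide producing oxidase Duox1, rose by 1.14 ± 0.13 (adjusted p = 1.4e-10), and the peptide gene Adm by 0.91 ± 0.22 (adjusted p = 4.2e-04). At 5 d Pglyrp1, a peptidoglycan recognition protein of granulocytes, rose by 2.22 ± 0.18 (adjusted p = 2.3e-15) and S100a8, a calprotectin subunit, by 3.31 ± 0.50 (adjusted p = 2.4e-07). At 13 w their changes were 0.23 ± 0.18 (adjusted p = 0.302) and 0.92 ± 0.50 (adjusted p = 0.134). Both genes are in the neutrophil list as well. Of 18 gland and secretory cell markers 0 rose and 7 fell at 13 w (38.9% called; median -0.51, against -0.02 for all genes). There 44.2% of all genes were called in either direction and 23.5% higher, so the falls alone have no like share here.

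Among 32 measured inducers and regulators of such genes, 13 rose and 3 fell at 15 ppm after 5 d (16 of 32 called, against 37.7% of all genes; median 0.28), and 12 rose and 4 fell after 4 w (16 of 32 against 37.4%). After 13 w 9 rose and 5 fell, a share of 43.8% called that was near the 44.2% of all genes (median 0.08). Cebpa, a transcription factor of myeloid and squamous differentiation, rose at all 3 times, by 1.00 ± 0.16 at 5 d (limma adjusted p = 5.6e-07), 1.23 ± 0.16 at 4 w (adjusted p = 6.6e-09) and 1.71 ± 0.16 at 13 w (adjusted p = 2.1e-13). Myd88, the adaptor of Toll-like and interleukin-1 receptors, rose by 0.87 ± 0.09 at 5 d (adjusted p = 1.8e-11) and 0.54 ± 0.09 at 13 w (adjusted p = 1.3e-06). At 13 w Il10rb, a subunit of the interleukin-22 receptor, changed by -0.63 ± 0.08 (adjusted p = 7.0e-09), and Ccr6, the receptor of Ccl20 and of beta-defensins, by -0.87 ± 0.19 (adjusted p = 1.1e-04). Tgfa, a ligand of the epidermal growth factor receptor, rose by 0.46 ± 0.09 (adjusted p = 2.0e-05).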

How the data were processed

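Values were deposited on the log2 scale. RMA, without a version, and GCOS 1.0 are the tools the submitters' processing notes list, and no scaling was added here. Of 31099 probe sets, 20826 named 1 gene, and the probe set with the highest mean stood for each of 14217 genes. Group means were estimated by limma 3.58.1 (R 4.3.3) over all 68 arrays, with 51 residual degrees of freedom plus 2.85 from eBayes. The 24 comparisons were adjusted by Benjamini-Hochberg within each, with a median SE of 0.10 per change. The fit was tested on simulated data. Groups came from the titles, whose times were followed for the 19 arrays of 4 w whose treatment field gives 5 d. Animals were treated as replicates, and 4 per group limit the precision. Genes outside the members were named as up to 6 per list by smallest adjusted p at 15 ppm after 13 w, and as the genes most like each member (5 for Defb4, 3 for others). The gene lists came from general knowledge. The members and lists were chosen with earlier results of these data known. Coordinates and promoters are RefSeq's for GRCr8, and the array annotation matched 7 members. Alternatives tried are named in the closing section.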

Additional observations from a re-analysis of the deposited data

Results flagged for a closer look

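In 7 of 119 groups of 4 animals (7 genes in 17 groups) 1 animal lay far from the others by Dixon's test, which chance gives in about 1 group in 20. Defb4 was lowest in 1 animal at 10 ppm and 5 d (7.64, the others 9.08 to 9.16). Slpi was highest in 1 animal at 10 ppm and 5 d (11.29, others 10.01 to 10.20) and in 1 at 0.7 ppm and 13 w (11.96, others 9.02 to 9.45), and lowest in 1 at 15 ppm and 5 d (12.17, others 12.63 to 12.72). Wfdc2 was lowest in 1 animal at 15 ppm and 5 d (14.15, others 14.25 to 14.26). Lyz2 was highest in 1 animal at 15 ppm and 4 w (13.66, others 12.95 to 12.97) and lowest in 1 at 0 ppm and 13 w (12.00, others 12.58 to 12.67).

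The response to 15 ppm differed between 13 w and 5 d by the interaction test for 4 members, by 1.63 for Defb1, -1.32 for Lcn2, -2.49 for Slpi and -2.05 for Lyz2 on the log2 scale.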

How the results depend on the processing

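Alternatives were median centring of arrays, cyclic loess, averaging of a gene's probe sets, a filter to genes that reached 6 in some group mean, array weights, trended robust eBayes, each time fitted alone, 0.7 ppm as reference, and the RNA integrity number or the beta-actin difference as covariate. Leaving out arrays without an integrity number was added after seeing the data. Each member had 1 probe set, so fitting a member's other probe sets by themselves gave no value, while averaging the probe sets of all genes moved members only through the shared fit and adjustment. No paired analysis was possible because no animal numbers are shared between groups. Of 14 called changes, none reversed. The count of called members at 6 ppm and 5 d went from 1 to 0 with median centring, 0.7 ppm as reference, either covariate and the arrays without an integrity number left out. At 15 ppm and 13 w it became 2 (Defb1 and Wfdc2) with array weights and with 0.7 ppm as reference. At 10 ppm and 4 w it became 2 (Slpi and Lyz2) with each time fitted alone. For the 15 ppm response at 4 w minus 5 d it became 1 (Lyz2) with the beta-actin covariate. The Camp rise at 5 d had adjusted p from 0.0426 (low-signal filter) to 0.183 (each time alone), and the Defb1 rise at 4 w 0.0812 with array weights and 0.0509 with each time alone. With 0.7 ppm as reference the Defb4 responses at 13 w minus 5 d were 2.27 at 15 ppm, and turned to -1.28 at 6 ppm and -0.37 at 10 ppm, as did the 13 w changes at 2, 6 and 10 ppm (-0.83, -0.10 and -0.01). Leaving out each animal in turn gave counts of 0 to 1 at 6 ppm and 5 d, 3 to 4 at 15 ppm and 5 d, 0 to 1 at 10 ppm and 13 w (Lyz2, without the 0 ppm animal at 12.00), 1 to 2 at 15 ppm and 13 w, 0 to 1 at 10 ppm and 4 w, 2 to 3 at 15 ppm and 4 w, 3 to 4 for the 15 ppm response at 13 w minus 5 d, and 0 to 1 for that at 4 w minus 5 d (Lyz2, without the 15 ppm animal of 4 w at 13.66). The Defb4 change at 15 ppm and 13 w then ran from 3.28 to 4.24. The causes of these shifts were not tested.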

Other observations

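Within groups, the genes whose deviations from the group mean were most like those of Defb4, among 1656 genes with a pooled SD of at least 0.3, were Krt10 (r = 0.93), C20h6orf15 (0.92), Sbsn (0.91), Lce3b (0.87) and Krtdap (0.85) over 68 animals. Sbsn, Lce3b and Krtdap are known from cornifying epithelium. Without the 2 animals farthest out on Defb4 the values ran from 0.83 to 0.92. The likest genes of Slpi in the same comparison were Kap (0.86), Dct (0.78), Lcnl (0.74), Avp (0.71) and Ptgs2 (0.70). For Kap the Spearman correlation was 0.65 and r without the 2 farthest animals 0.79, so that likeness leaned on the animals with very high Slpi. This comparison was chosen after the values had been seen and has no test.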
